A study of Mus musculus with 168 samples.

Results

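The cortex of Q140 mice was compared at 2 and at 10 months of age by small RNA sequencing. The libraries were chosen by their titles, as HET (Q140) cortex at 2 months against HET (Q140) cortex at 10 months, with earlier results of these data known. The choice gave 16 of the 168 cortex libraries of the series, 8 at each age from 4 female and 4 male mice. Q140 mice are heterozygous for a knock-in Htt allele in which mouse sequence around exon 1 was replaced by human HTT exon 1 with an expanded CAG repeat, and their second Htt allele is wild type. The mice were on a C57BL/6 background and received no treatment. The knock-in sits at the endogenous locus under the Htt promoter, so every cell of the cortex carried it at both ages. A small RNA table holds no Htt message, so the allele itself was not checked. For side by side values, 32 control libraries were used, which were heterozygous Q20 mice, with a knock-in repeat in the normal range, and wild-type littermates (WT), 16 at each age, and in addition 16 Q175 libraries, from a line that arose by expansion within the Q140 line. Libraries of other heterozygous knock-in mice named by their repeat (Q80, Q92 and Q111) entered the joint fits of all genotypes, and those of Q80 and Q111 a comparison within a lane number. Levels of Q140, control and Q175 mice at 6 months are given in places.

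MicroRNAs are short RNAs cut from a hairpin precursor that guide silencing complexes to messenger RNAs. Pairing of the seed, the bases 2 to 8 of the mature strand, with a target is the main determinant of which messages are repressed, so hairpins with the same seed are grouped as a family. In the cortex, some microRNAs belong mainly to neurons (Mir124a, Mir9, Mir128), others to oligodendrocytes (Mir219a, Mir338), microglia and other glia (Mir21a, Mir155), vessels, blood or choroid plexus, and a set around Mir200 and Mir182 is typical of epithelia and sensory organs rather than of cortex. Counts here were made per hairpin, so the strands cut from the same hairpin were not told apart.

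The mature sequences of the families on which the results turn are given 5′ to 3′ from RefSeq (GRCm38.p6), with the seed in capitals. The Mir30 and Mir29 hairpins are shown first. All 6 of the former and 3 of 4 of the latter were higher at 10 months, as were 21.5% of all tested microRNAs. Age could not be told apart from lane number in Q140, and counts from a fit with lane number are given below.
miR-30a-5p: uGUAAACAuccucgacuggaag
miR-30c-5p: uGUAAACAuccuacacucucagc
miR-30e-5p: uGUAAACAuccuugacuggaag
miR-29a-3p: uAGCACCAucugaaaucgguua
miR-29b-3p: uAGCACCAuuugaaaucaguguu
miR-29c-3p: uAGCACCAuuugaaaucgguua
The strand of Mir34b has the seed of Mir34a, and Mir101a and Mir193a were also among the microRNAs that were higher at 10 months.
miR-34b-5p: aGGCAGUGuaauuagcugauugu
miR-34a-5p: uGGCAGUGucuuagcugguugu
miR-101a-3p: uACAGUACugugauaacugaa
miR-193a-3p: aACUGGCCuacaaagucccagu
The epithelial and sensory microRNAs gave the steepest falls. Mir200a and Mir141 have an identical seed, Mir200b and Mir429 share another, and Mir182, Mir96 and Mir183 come from a single cluster.
miR-200a-3p: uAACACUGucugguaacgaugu
miR-141-3p: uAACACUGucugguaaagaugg
miR-200b-3p: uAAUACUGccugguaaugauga
miR-429-3p: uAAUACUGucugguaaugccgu
miR-182-5p: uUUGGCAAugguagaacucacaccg
miR-96-5p: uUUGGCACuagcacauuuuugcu
miR-183-5p: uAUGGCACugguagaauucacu
Mir296 and Mir298, which lie next to each other, the Mir7-2 hairpin of miR-7a-5p, and Mir212 were each lower in every library of 10 months than in any of 2 months, and Mir212 has the seed of its neighbour Mir132.
miR-296-5p: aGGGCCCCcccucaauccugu
miR-298-5p: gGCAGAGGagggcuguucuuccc
miR-7a-5p: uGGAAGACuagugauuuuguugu
miR-132-3p: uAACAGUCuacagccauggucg
miR-212-3p: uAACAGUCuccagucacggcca

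The libraries held 4261994 to 5329329 estimated counts at 2 months and 3842836 to 5566554 at 10 months, and 96.7 to 97.4% of them fell on 638 transcripts named as microRNAs. Lane numbers in the column names did not cross the ages. The 2-month libraries carried lane number 2 (6 libraries), 3 (1) or 5 (1), and the 10-month libraries lane number 7 (6) or 8 (2). All 4 mice of a sex and age also shared a mouse code that no other sex or age of Q140 had in this comparison. Age, lane number and mouse code therefore cannot be told apart within Q140, and lane numbers do not say whether libraries ran on the same flow cell. Neuronal microRNAs were abundant at both ages, with a median of 39400 CPM (counts scaled to the library total) for Mir9-2 and 30590 for Mir128-1 over the 16 libraries. Hox-cluster microRNAs were mixed. Mir196a-1 and Mir196b had medians of 0, but Mir10b had a median of 264.4 CPM (175.6 to 439.5). Among principal components of all tested microRNAs, the second (15.6% of the variance) put the 10-month libraries between 1.52 and 3.07 and the 2-month libraries between -6.44 and 1.81. The first component (55.3%) instead set apart 4 libraries of 2 months, with its largest loadings on Mir141 (0.45), Mir182 (0.38) and Mir183 (0.37).

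Of 326 microRNAs with enough counts to test, 142 differed between 2 and 10 months at a false discovery rate (FDR) of 0.05, which is 43.6% of those tested. The 70 that rose are 21.5% of those tested and the 72 that fell are 22.1%. Adjusted p-values throughout are from edgeR's quasi-likelihood test with Benjamini-Hochberg adjustment over all tested microRNAs, and levels are CPM, the count scaled to a common library size by the trimmed mean of M values (TMM). Most differences were small: the median absolute log2 fold change of the 142 was 0.37, 100 of them were under 0.5, and 18 reached 1, of which 2 rose and 16 fell. For 36 microRNAs, 11% of those tested, the lowest library of an age lay above the highest of the other, with 19 higher and 17 lower at 10 months. Without the composition scaling, on library totals alone, 149 passed, of which 42 rose (28.2%, against 49.3% with it) and 107 fell, and the median over all tested microRNAs was -0.10 instead of -0.01, so that changes below are relative to the bulk of microRNAs. In the plot of change against level, falls of more than a log2 of 2 were those of Mir3547 and of 7 epithelial and sensory microRNAs.

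**Figure D1:**
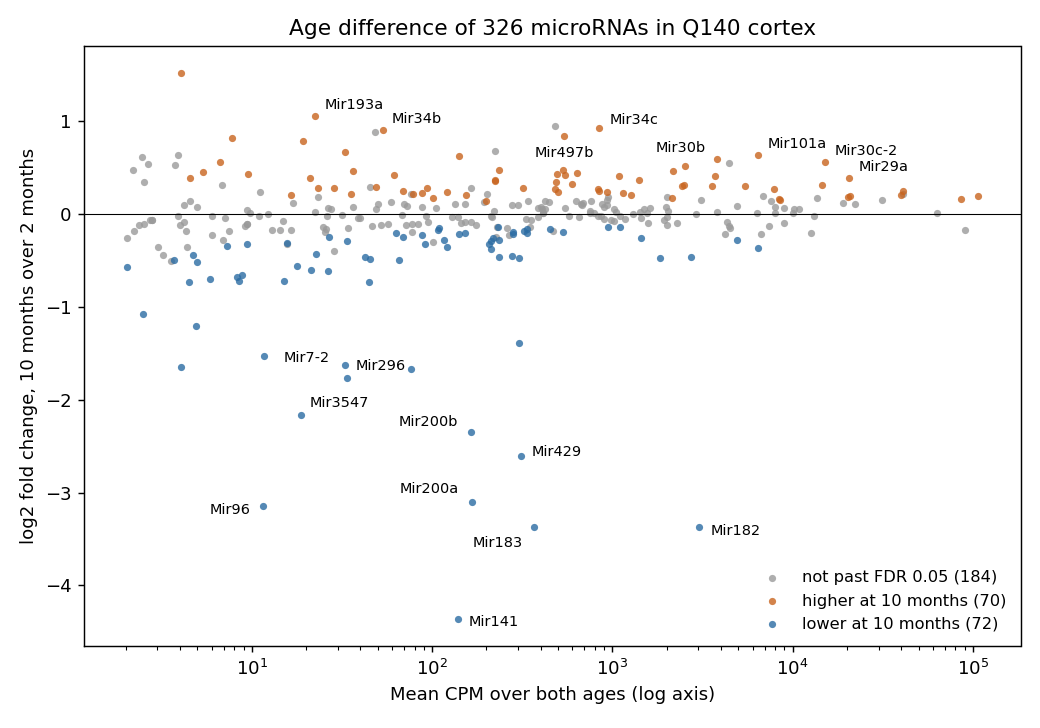
Each point is a microRNA: mean CPM over both ages on a log axis against the log2 fold change of 10 over 2 months, coloured by direction where the edgeR test passed FDR 0.05. There are 70 points higher and 72 lower at 10 months, and the lowest point is Mir141 at -4.36.

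Mir296 and Mir298 had the lowest p-values among falling microRNAs. Both lie beside the imprinted Gnas locus, on the minus strand of GRCm38 chromosome 2 at chr2:174267047-174267125 and chr2:174267504-174267585, and the annotation places no host gene there on their strand. Mir296 ranged from 42.7 to 59.2 CPM at 2 months (median 52.8) and from 12.6 to 18.1 at 10 months (median 15.3). No 10-month library reached the lowest 2-month library, and the level was 3.39-fold lower (log2 -1.76 ± 0.09 SE, adjusted p = 1.99e-10). Mir298 lay between 344 and 519 CPM at 2 months (median 445) and between 137 and 212 at 10 months (median 158). The ages again did not overlap, and the log2 change was -1.39 (SE 0.11, adjusted p = 5.28e-08). Mir298 was not among the 10 steepest falls and was named, with its neighbour, after its values were seen.

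Mir7-2, a hairpin of the neuronal and endocrine Mir7 (chr7:78888277-78888373, plus strand, outside genes), fell from a median of 52.4 CPM (37.86 to 59.95) to 16.2 (10.4 to 23.1). The change was log2 -1.63 (SE 0.16, adjusted p = 6.65e-07), and no library of 10 months reached the range at 2 months. Mir7-1, an intronic hairpin of Hnrnpk on chromosome 13 with the same mature miR-7a-5p, fell by only 0.20 on the log2 scale (SE 0.08, adjusted p = 0.0443). Reads of the shared strand could have been divided between these loci, so the split is uncertain.

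Mir3547, in an intron of Baiap3 (chr17:25245551-25245638, minus strand), had 20.8 to 42.2 CPM at 2 months and 3.46 to 10.7 at 10 months, with medians of 29.5 and 6.61. It was lower in all 8 libraries of 10 months than in any of 2 months (log2 -2.16 ± 0.20 SE, adjusted p = 4.37e-07). Mir187, on chromosome 18, went from a median of 112.5 CPM (75.7 to 154) to 31.04 (25.5 to 65.9), a log2 change of -1.67 (SE 0.20, adjusted p = 1.02e-05), without overlap.

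Another set of falls came from introns of Sfmbt2 on chromosome 2 (chr2:10473931-10514674, plus strand), an imprinted gene whose intron holds a large run of related hairpins. Of 8 tested microRNAs there, 7 fell and none rose, where 22.1% of all tested microRNAs fell and 21.5% rose. Mir467a-1 went from 16.2 to 22.2 CPM (median 18.9) to 8.02 to 14.9 (median 10.7), with no overlap and a log2 change of -0.72 (SE 0.12, adjusted p = 1.66e-04). Mir669c fell by 0.73 (SE 0.12, adjusted p = 1.87e-04) and Mir467e by 0.69 (SE 0.15, adjusted p = 0.00121), also without overlap. Mir467c, Mir467d, Mir466d and Mir466g, the other 4, fell by 1.07, 0.66, 0.49 and 0.57. These hairpins resemble each other and had group means of 1.59 to 18.9 CPM, so reads could have been divided among them, and the run was picked out after its values were seen.

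Among rising microRNAs, Mir193a had the largest fold of those with a mean of 50 counts or more. It lies outside genes at chr11:79711969-79712034 (plus strand) and went from 10.9 to 17.6 CPM at 2 months (median 15.1) to 27.5 to 34.4 at 10 months (median 30.2). The fold was 2.08 (log2 1.05 ± 0.10 SE, adjusted p = 6.02e-07), with no overlap.

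Mir497b rose 1.797-fold (log2 0.85 ± 0.07 SE, adjusted p = 5.28e-08), from a median of 392 CPM (350 to 437) to 655.9 (610.8 to 844.5). All 10-month libraries were above all 2-month libraries. The hairpin (chr11:70234692-70234816, minus strand) lies opposite Mir497, which had no line of its own in the table, and whether the counting used strand is not certain, so reads of the pair cannot be told apart. Among the 142 that passed, 11 have such a microRNA annotated on the opposite strand, Mir203, Mir219a-2, Mir338, Mir486, Mir451a, Mir9-2 and Mir30e among them.

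Mir101a, known to repress the chromatin modifier Ezh2, rose from 4677 to 5681 CPM (median 4992) at 2 months to 6860 to 9663 (median 7436) at 10 months, again with no overlap (log2 0.64 ± 0.07 SE, adjusted p = 3.74e-06). Its relative Mir101b on chromosome 19, named here after its values were seen, rose by log2 0.41 (SE 0.07, adjusted p = 1.66e-04). Mir203, known from skin, rose from a median of 113 CPM (92.6 to 120) to 170 (149 to 214), log2 0.63 (SE 0.08, adjusted p = 5.31e-06), with the ages apart. Mir33, in the intron of the cholesterol regulator Srebf2, rose by log2 0.67 (SE 0.13, adjusted p = 4.36e-04), and its ranges of 18.9 to 34.3 and 26.9 to 53.0 CPM overlapped. Mir5100, in an intron of Mief2, rose by log2 0.79 (SE 0.19, adjusted p = 0.00331) and overlapped too, and it did not pass in males alone (adjusted p = 0.152) or in joint fits of all genotypes without and with lane number (adjusted p = 0.101 and 0.371).

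**Figure D2:**
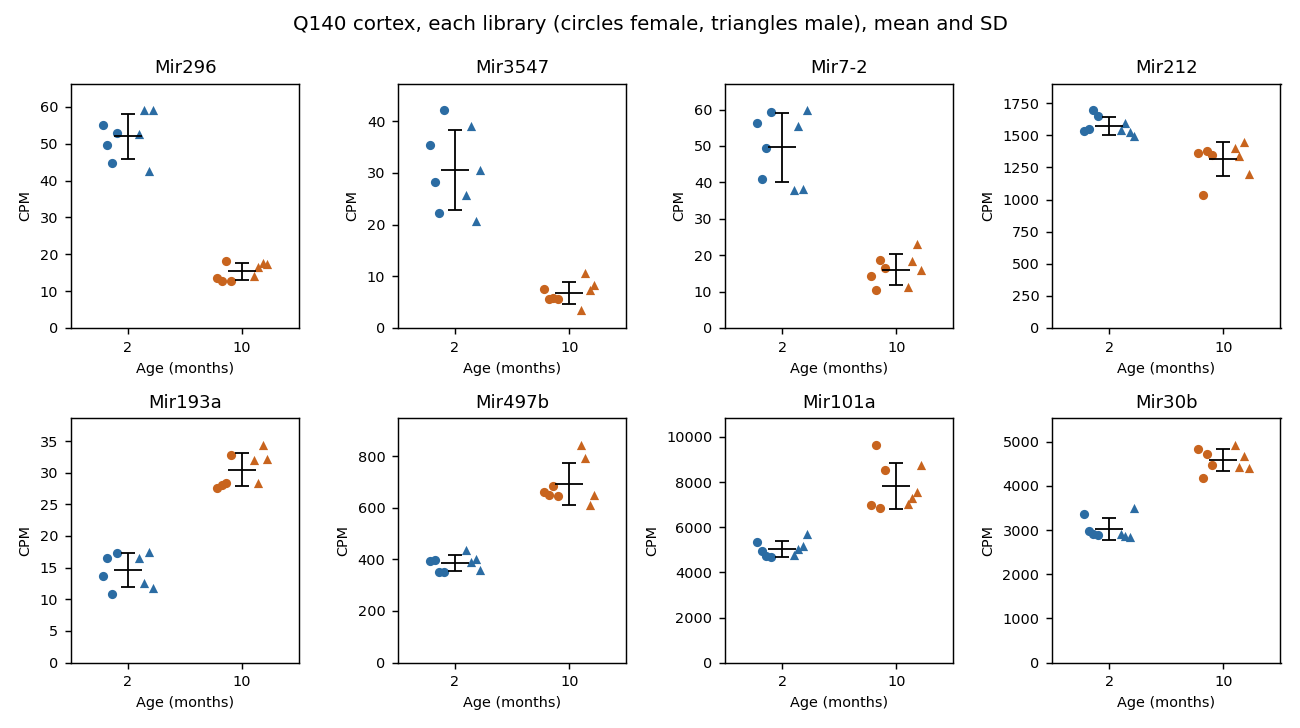
CPM of 8 microRNAs in each Q140 library at 2 and 10 months, circles female and triangles male, with the mean and SD of 8 libraries as black lines and all axes starting at 0. In these panels no 10-month library lies within the range of the 2-month libraries. Mir296 has medians of 52.8 and 15.3.

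The members of 20 lists of microRNAs, by family, locus or cell type, were followed beside these. The lists were set with earlier results of these data known. Their counts in the main fit are to be read against the 21.5% that rose and 22.1% that fell among all tested. Because age and lane number are confounded in Q140, counts are also given from a joint fit of all genotypes with lane number as a term, called the joint lane fit. Shares differed between settings. The joint lane fit called 56 rising and 50 falling of 360 tested, and library totals alone 42 and 107 of 326. The fit without 4 libraries of 2 months (below) called 39 and 49 of 331. Lane number 7 alone was found at both ages, at 2 months in 4 libraries, of Q20, WT, Q80 and Q111 mice. The joint lane fit parts age from lane number only through these, and none of them is Q140. The Mir30 family moved as a whole: all 6 hairpins rose, with a median log2 change of 0.29 against -0.01 for all tested, and 5 of 6 rose on library totals alone and 4 of 6 in the joint lane fit. Mir30b, on the minus strand of chromosome 15, rose from a median of 2910 CPM (2853 to 3497) to 4575 (4181 to 4935), log2 0.60 (SE 0.05, adjusted p = 2.75e-07), without overlap. Mir30c-2 rose from 10680 to 15220 CPM (median 12330) to 15630 to 19930 (median 18190), log2 0.56 (SE 0.07, adjusted p = 5.01e-06), the ranges also apart. Mir30e, in an intron of Nfyc, rose by 0.32 (SE 0.06, adjusted p = 4.36e-04) and did not overlap. Mir30a, the most abundant of the family, rose by 0.25 (SE 0.06, adjusted p = 0.00272), from 37470 ± 2638 to 44430 ± 4705 CPM (SD, n = 8 each). Mir30d (0.18, adjusted p = 0.00287) and Mir30c-1 (0.27, adjusted p = 0.00889) completed the family. The hairpins lie as pairs at 3 loci, Mir30a with Mir30c-2 on chromosome 1, Mir30c-1 with Mir30e on chromosome 4, and Mir30b with Mir30d on chromosome 15, and in each pair both rose. With the 4 libraries of 2 months left out that were high in epithelial microRNAs (below), 4 of the 6 rose. Mir30c-1 and Mir30c-2 have the same mature strand.

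Of the Mir29 family, whose best known targets are collagens and DNA methyltransferases, 3 of 4 hairpins rose, 3 of 4 on library totals alone and 2 of 4 in the joint lane fit, where Mir29b-2 did not pass (adjusted p = 0.0747). Mir29c, on chromosome 1 at chr1:195037547-195037634, rose from 1839 to 2259 CPM (median 2108) to 2303 to 3256 (median 3037), log2 0.52 (SE 0.06, adjusted p = 5.41e-06), and the ages did not overlap. Its neighbour Mir29b-2 rose by 0.45 (SE 0.07, adjusted p = 1.05e-04). Mir29a on chromosome 6 rose by 0.39 (SE 0.06, adjusted p = 9.29e-05), from a median of 18330 CPM to 24120. Mir29b-1, next to Mir29a and with the same mature strand as Mir29b-2, had 129 ± 22.9 and 139 ± 19.1 CPM (SD, n = 8 each) and did not pass (log2 0.11, SE 0.10, adjusted p = 0.401).

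Of the Mir34 family, effectors of p53 of which Mir34b, Mir34c and Mir449a are typical of ciliated cells, 2 of 4 tested rose. Mir34c ranged from 463 to 877 CPM at 2 months and from 558 to 1634 at 10 months (medians 525 and 1128), log2 0.93 (SE 0.25, adjusted p = 0.00886). Mir34b, from the same cluster on the minus strand of chromosome 9, had medians of 33.4 and 62.5 (log2 0.91, SE 0.21, adjusted p = 0.00316). Some 10-month libraries of both lay within the 2-month range. Mir34a, made in most cells, had a log2 change of 0.21 (adjusted p = 0.0609) and Mir449a one of -0.44 (adjusted p = 0.0508), and neither passed. With the 4 high libraries of 2 months left out, none of the 4 passed, nor in the joint lane fit, and on library totals alone 1 also fell.

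Smaller shifts were seen in other families of abundant microRNAs. In the let-7 family 3 of 10 rose, Mirlet7f-2 (log2 0.20, adjusted p = 9.06e-04), Mirlet7c-2 (0.16, adjusted p = 0.00553) and Mirlet7g (0.15, adjusted p = 0.0265), whose call was lost without any of 7 single libraries, but on library totals alone 1 rose and 2 fell, and 0 of 10 passed in the joint lane fit. Mirlet7c-1 had -0.13 (adjusted p = 0.139). In the Mir181 family, 3 of 6 rose: Mir181b-2 (0.37, adjusted p = 0.00866), Mir181b-1 (0.30, adjusted p = 0.0145) and Mir181a-2 (0.20, adjusted p = 0.0485, lost without any of 10 single libraries), and 2 on library totals. With the 4 high libraries left out 1 rose, and 4 did in the joint lane fit. Mir181a-1 had 0.19 (adjusted p = 0.0554). Of the Mir15 and Mir16 family, which restrains the cell cycle, 1 of 6 rose, Mir15a in an intron of Dleu2 (0.47, SE 0.06, adjusted p = 1.43e-05), and on library totals 1 also fell, as in the joint lane fit. Its neighbour Mir16-1 had 0.14 (adjusted p = 0.0663), Mir195a 0.13 (adjusted p = 0.136) and Mir15b -0.15 (adjusted p = 0.184). Of 11 tested members of the Mir17-92 cluster and its paralogs, Mir93 (0.35, adjusted p = 1.05e-04) and Mir106b (0.17, adjusted p = 0.0203), both within Mcm7, rose (Mir106b not without Male replicate 2 of 10 months, adjusted p = 0.0538) and Mir18 fell by 0.73 (adjusted p = 0.0150) at 22.4 counts on average, with Mir19a at 0.34 (adjusted p = 0.184). With library totals alone, 1 of them rose and 1 fell, and in the joint lane fit 1 rose and 0 fell. No member of the Mir221 and Mir222 cluster passed: Mir221 had -0.09 (adjusted p = 0.110) and Mir222 -0.03 (adjusted p = 0.775), and 1 of them fell on library totals.

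The imprinted Dlk1-Dio3 cluster on chromosome 12, the largest run of brain microRNAs, leaned downwards. Of 41 tested members 13 fell and 3 rose, and the median log2 change was -0.12, with 18 falling and 0 rising on library totals. In the joint lane fit 5 fell and 2 rose, with a median of -0.04. Mir666 fell from 320 ± 24.9 to 235 ± 24.3 CPM (log2 -0.45 ± 0.06 SE, adjusted p = 2.27e-05), but had -0.01 in the joint lane fit (adjusted p = 0.949), where Mir370 had 0.00 (adjusted p = 0.992). Mir370 fell by 0.28 (SE 0.05, adjusted p = 3.81e-04), Mir412 by 0.56 (SE 0.12, adjusted p = 9.80e-04), Mir382 by 0.20 (SE 0.05, adjusted p = 0.00326) and Mir543 by 0.28 (SE 0.07, adjusted p = 0.00372). The 3 that rose were Mir665 (0.22), Mir494 (0.46) and Mir154 (0.14), none of which were part of the rule for naming microRNAs. Leaving out the 4 high libraries of 2 months, 11 fell and 0 rose.

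**Figure D3:**
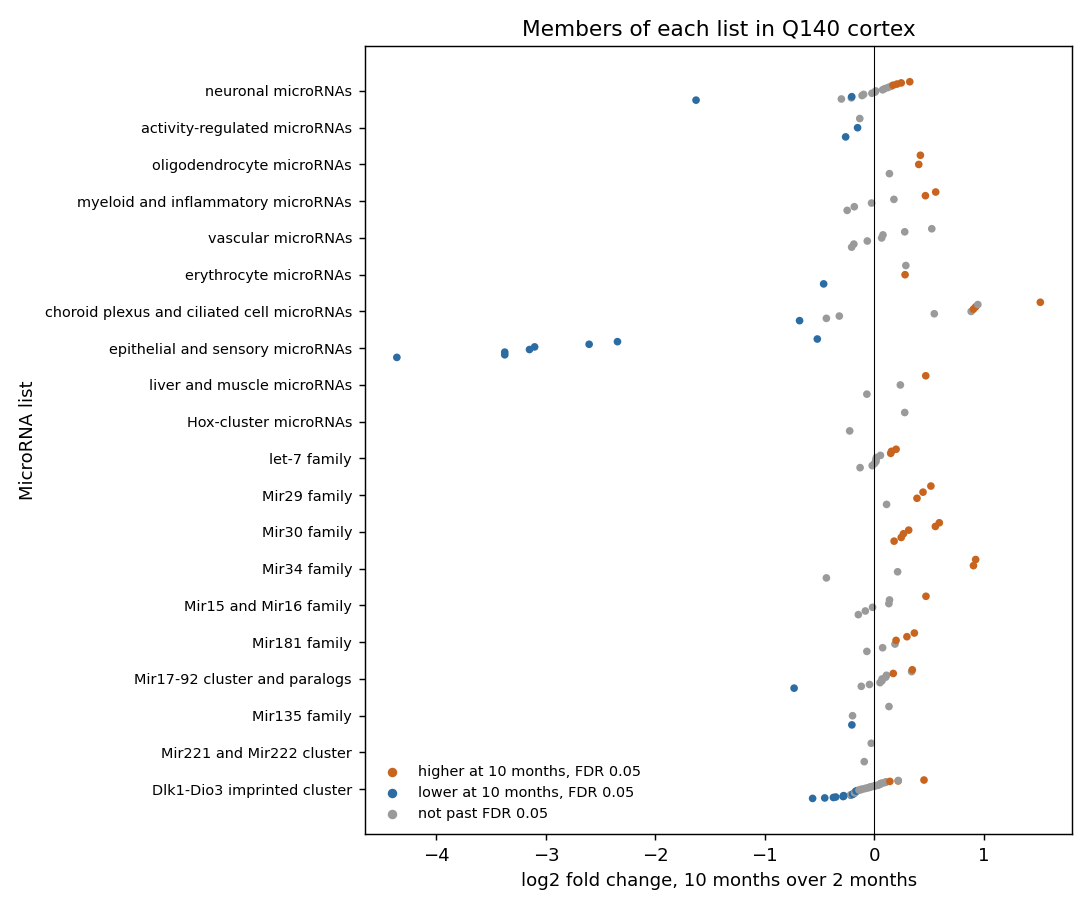
Log2 fold change of 10 over 2 months (x axis) for each tested member of the 20 lists (y axis), orange where it rose, blue where it fell and grey where the edgeR test did not pass FDR 0.05, with TMM scaling. All 6 Mir30 hairpins are orange and all 8 epithelial and sensory microRNAs blue, 7 of them below -2.

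Among microRNAs typical of neurons, 4 of 17 rose and 2 fell, with a median log2 change of 0.01 that was -0.08 on library totals, where 1 rose and 4 fell, and 4 rose and 4 fell in the joint lane fit. Mir9-3 rose by 0.33 (SE 0.08, adjusted p = 0.00261), Mir9-2 by 0.21 (SE 0.07, adjusted p = 0.0163) and Mir218-2 and Mir218-1, in introns of Slit3 and Slit2, by 0.17 and 0.25 (adjusted p = 0.0179 and 0.0397). Leaving out the 4 high libraries of 2 months, 1 rose and 1 fell. Both that fell were Mir7 hairpins. Together the neuronal list made up 101800 to 114400 CPM at 2 months and 106600 to 121200 at 10 months. In whole cortex, fewer cells of a type and less of its RNA per cell cannot be told apart, here and for the lists that follow.

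Of 3 microRNAs induced by neuronal activity, 2 fell and none rose, but none of the 3 passed in the joint lane fit, where Mir212 had -0.14 (adjusted p = 0.279) and Mir134 had -0.21 (adjusted p = 0.0899). Mir212 lay between 1496 and 1699 CPM at 2 months (median 1547) and between 1039 and 1448 at 10 months (median 1355), with no overlap (log2 -0.26 ± 0.06 SE, adjusted p = 0.00272). Mir132, in the same intron and with the same seed, had 7789 ± 857 and 7097 ± 801 CPM (SD, n = 8 each) and did not pass (log2 -0.13, SE 0.07, adjusted p = 0.129). Mir134, a regulator of dendritic spines, fell by 0.15 (adjusted p = 0.0339), a call lost without Female replicate 2 of 2 months (adjusted p = 0.0699) and without 3 other single libraries.

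Both abundant microRNAs of oligodendrocytes rose, also in the joint lane fit. Mir219a-2 went from 418.7 to 526.1 CPM (median 463.9) to 588 to 677 (median 621), log2 0.42 (SE 0.05, adjusted p = 2.57e-06), without overlap. Mir338, in an intron of Aatk, rose from a median of 3081 CPM (2667 to 3893) to 4280 (3388 to 4738), log2 0.41 (SE 0.08, adjusted p = 5.34e-04). Mir219a-1, the third of the list, had means of 4.30 and 4.74 CPM and did not pass (log2 0.14, adjusted p = 0.453). The summed list ranged from 3137 to 4422 CPM at 2 months and from 4005 to 5419 at 10 months.

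Of 6 myeloid and inflammatory microRNAs, Mir21a rose from a median of 1818 CPM (1608 to 2030) to 2410 (2236 to 3360), log2 0.47 (SE 0.08, adjusted p = 1.64e-04), and Mir155 from 5.34 to 8.31 CPM (log2 0.56, SE 0.14, adjusted p = 0.00416). The ages were apart for Mir21a and overlapped for Mir155, which did not pass in the joint lane fit (adjusted p = 0.0524), in females alone (adjusted p = 0.113) or without the 4 high libraries (adjusted p = 0.0592). In the joint lane fit 1 member of the list rose and 3 fell, with a median of -0.36, against 0.08 here. Mir146 had -0.25 (adjusted p = 0.0608) and Mir146b -0.18 (adjusted p = 0.271). None of 7 vascular microRNAs passed, with Mir126a, of endothelium, at 0.07 (SE 0.05, adjusted p = 0.280), Mir143, of smooth muscle, at -0.21 (SE 0.15, adjusted p = 0.285), Mir10a at 0.28 (adjusted p = 0.172) and Mir199b at 0.53 (adjusted p = 0.0959). Of 3 erythrocyte microRNAs Mir451a rose (0.28, adjusted p = 0.0125), Mir486 fell by 0.46 (adjusted p = 3.19e-04), and Mir144 had 0.29 (adjusted p = 0.0731). Mir451a did not pass on library totals (adjusted p = 0.0807), in females alone (adjusted p = 0.321) or without the 4 high libraries (adjusted p = 0.150), and Mir486 did not in the joint lane fit (log2 -0.08, adjusted p = 0.575). Of 3 liver and muscle microRNAs, Mir133a-1, typical of muscle, rose from 196 ± 20.9 to 272 ± 29.0 CPM (log2 0.47, adjusted p = 1.45e-04), whereas Mir1a-1 had 0.24 (adjusted p = 0.174) and Mir208a -0.07 (adjusted p = 0.804). No Hox-cluster microRNA passed, and Mir10b, which the study names for the cortex, had 290 ± 85.1 and 244 ± 62.0 CPM (SD, n = 8 each; log2 -0.22, adjusted p = 0.241).

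Of the Mir135 family, 1 of 3 fell, Mir135b (log2 -0.20, SE 0.07, adjusted p = 0.0329), and 2 fell on library totals. The call of Mir135b was lost without any of 7 single libraries (adjusted p up to 0.0674). Mir135a-2 had -0.20 (adjusted p = 0.186) and Mir135a-1 had 0.14 (adjusted p = 0.408). Mir484 fell by 0.16 (adjusted p = 0.0431), a call lost without any of 11 single libraries (adjusted p up to 0.0969, without Male replicate 4 of 2 months). Mir125b-1 (-0.07, adjusted p = 0.420) and Mir125b-2 (0.17, adjusted p = 0.0554) did not pass.

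The list of choroid plexus and ciliated cell microRNAs had a wider range of summed levels at 10 months, a difference in spread that was not tested. Of 9 tested, Mir34b, Mir34c and Mir1912 rose and Mir211 fell by 0.68 (adjusted p = 0.0166), and their summed level ranged from 3857 to 6438 CPM at 2 months and from 3699 to 12580 at 10 months. Mir1912, in an intron of the serotonin receptor gene Htr2c, had 1.33 to 4.53 CPM at 2 months and 0.74 to 12.1 at 10 months. Its log2 change was 1.52 (SE 0.50, adjusted p = 0.0240). The call was lost without Female replicate 1 or Female replicate 3 of 10 months (adjusted p = 0.0537 and 0.0538). Mir448 and Mir1298, in introns of the same gene, ranged from 17.9 to 124.5 and from 181 to 1344 CPM at 10 months and did not pass (log2 0.89 and 0.95, adjusted p = 0.117 and 0.0893). Mir204 had 3585 ± 638 and 5293 ± 2637 CPM (log2 0.55, adjusted p = 0.0899). Without the 4 libraries of 2 months described next, 0 of the 9 passed in either direction, and 0 in the joint fit with lane number. On library totals 3 rose and 2 fell, and in lane number 2 against 7, 3 rose and 1 fell. Without Female replicate 2 of 10 months, 5 rose and 2 fell.

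The steepest falls were those of epithelial and sensory microRNAs, and they rested on 4 of the 8 libraries of 2 months. All 8 tested members fell. In a joint fit with lane number 0 of the 8 passed (median -2.20), in females alone none did, and in males alone Mir205 did. The log2 changes were -4.36 for Mir141 (SE 1.255, adjusted p = 0.0134), -3.38 for Mir183 (SE 1.03, adjusted p = 0.0181), -3.38 for Mir182 (SE 1.08, adjusted p = 0.0227) and -3.15 for Mir96 (SE 0.999, adjusted p = 0.0213). Those of Mir200a, Mir429 and Mir200b, which lie together in introns of Ttll10, were -3.10, -2.60 and -2.35 (adjusted p = 0.0134, 0.0177 and 0.0193), and Mir205 had -0.52 (SE 0.13, adjusted p = 0.00489). In each the ages overlapped. Without Male replicate 1 of 2 months alone, 5 of them no longer passed (Mir182, adjusted p = 0.0692). Their sum at 2 months was 30350 CPM in Female replicate 3, 13910 in Male replicate 1, 9941 in Female replicate 4 and 5234 in Male replicate 4, but 838.8, 498.2, 279.5 and 268.7 in the other 4 libraries. At 10 months it ranged from 366 to 1444 CPM (median 557). Mir182 alone, of sensory epithelia, reached 22540 CPM in a library of 2 months and 125 in another. Without the 4 high libraries 0 of 8 passed in either direction, and 7 of the 8 had log2 changes above 0, from 0.33 for Mir200b to 1.06 for Mir96, while Mir205 had -0.49. Over all microRNAs 88 then passed, of which 82 were among the 142. The 4 libraries were picked by the sum of these same 8 microRNAs. The changed signs, and the calls lost with them, follow from that choice and are no result about them. High sums were also found in other mice: as CPM of the library total, 11 of 16 control libraries of 2 months and 12 of 16 of 6 months were above 5000, and 0 of 16 of 10 months. In Q175 it was 1 of 8 libraries of 2 months (median 502), 4 of 8 of 6 months and 0 of 8 of 10 months. By the same measure Q140 had 4 of 8 at 2 months, 2 of 8 at 6 months (median 2476, highest 15870) and 0 of 8 at 10 months.

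**Figure D4:**
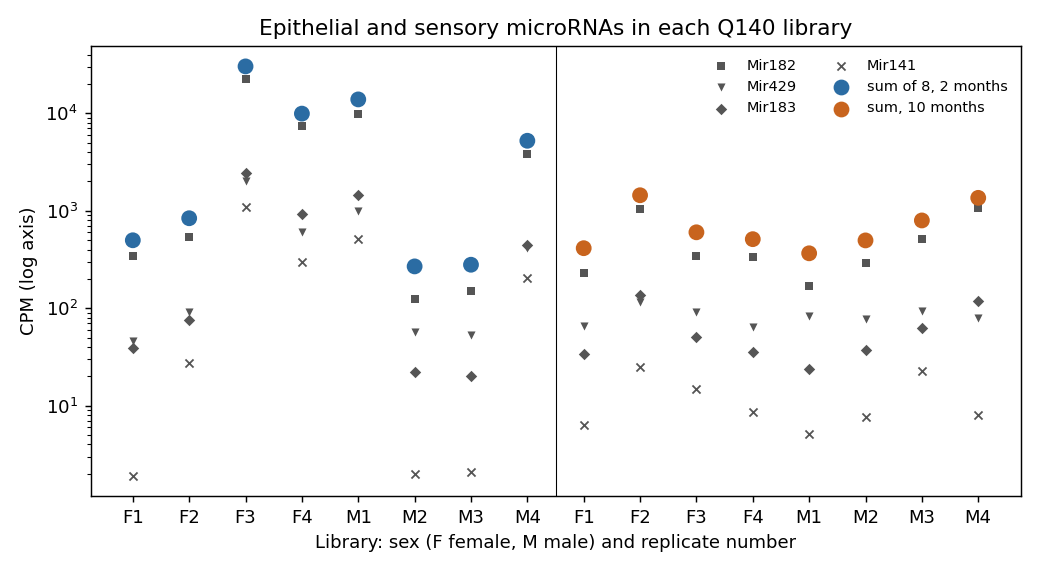
CPM on a log axis in each of the 16 Q140 libraries, named by sex and replicate number, with 2 months left and 10 months right of the line. Large circles are the sum of the 8 epithelial and sensory microRNAs, small symbols 4 of its members, and 4 libraries of 2 months, at 5234 to 30350, stand above all others.

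The age difference in controls was set beside that in Q140 to ask whether the expanded repeat altered it. In 32 control libraries 206 of 337 microRNAs passed, 61.1%. Of the 142 of Q140, 140 had the same sign in controls and 130 also passed there with the same sign, which is 91.5% of the calls in Q140 and 63.1% of those in controls. Most control libraries also had lane numbers found at a single age. The shared signs therefore cannot tell age from lane number, and whether sequencing run contributed to them was not tested. Mir296 changed by log2 -1.76 in Q140 and -1.64 in controls, Mir193a by 1.05 and 0.95, Mir30b by 0.60 and 0.47, and Mir141 by -4.36 and -4.86. Opposite signs were found for Mir135b (-0.20 in Q140, 0.12 in controls) and Mir375 (0.28 and -0.65).

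Tested directly over 48 libraries, the age difference of Q140 minus that of controls passed for 0 of 344 microRNAs (0%) with edgeR, where 15 had an unadjusted p under 0.05, and for 0 with DESeq2, where 17 did. Mir135b was nearest, with a difference of -0.35 (95% interval -0.53 to -0.17, adjusted p = 0.126), then Mir212 with -0.25 (-0.40 to -0.10, adjusted p = 0.207), Mir497b with 0.30 (0.11 to 0.49, adjusted p = 0.207) and Mir543 with -0.22 (-0.36 to -0.08, adjusted p = 0.207). Mir92-2 had 0.23 (adjusted p = 0.585) and Mir203 had 0.21 (adjusted p = 0.690). For Mir296 the interval was -0.44 to 0.16, for Mir193a -0.29 to 0.48, and for Mir30b -0.06 to 0.27. For Mir141 it was -1.96 to 2.95, the widest of these 4. Mir212 fell in Q140 and had -0.03 in controls (adjusted p = 0.615), but this difference between the groups did not pass. Without the 4 high libraries of 2 months Mir135b passed (-0.35, adjusted p = 0.0446). So did 6 epithelial and sensory microRNAs, but this follows from the choice of libraries, since equally high control libraries were kept, and it is no result about them.

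**Figure D5:**
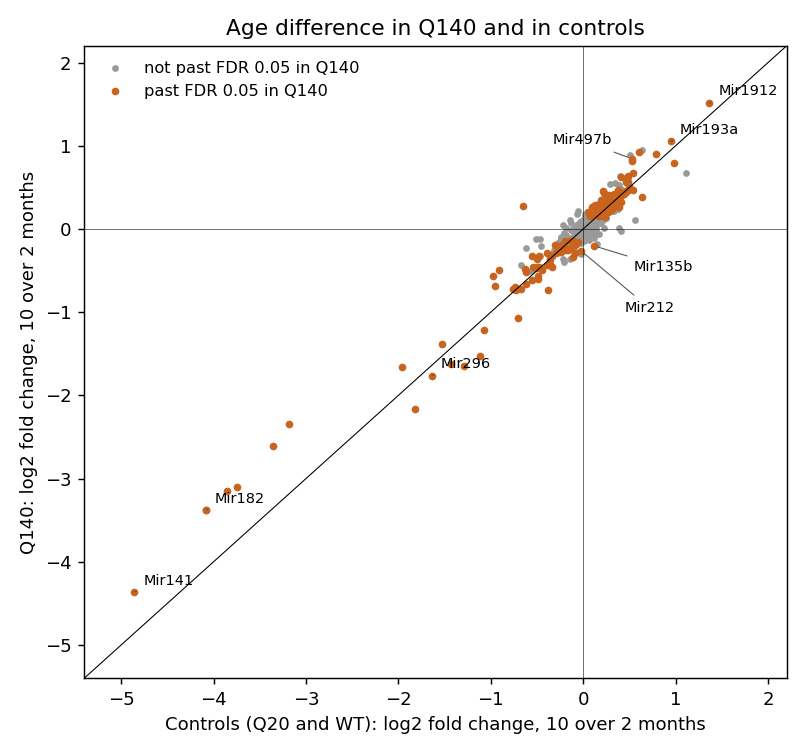
Log2 fold change of 10 over 2 months in controls (x axis) against that in Q140 (y axis) for each microRNA tested in both, orange where the edgeR test in Q140 passed FDR 0.05, with the line of equal change. Of the 142 orange points 140 have the same sign on both axes, and Mir135b is among the 2 that do not.

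Against Q175, 6 of 338 microRNAs (1.78%) differed in their age difference. The age difference of Q140 minus that of Q175 was 2.14 for Mir448 (95% interval 1.10 to 3.17, adjusted p = 0.0389) and 1.91 for Mir1298 (0.91 to 2.92, adjusted p = 0.0485), neither of which passed within Q140, with medians of 29.4 and 57.2 CPM of the library total for Mir448 at 2 and 10 months in Q140 and of 32.4 and 14.2 in Q175. For Mir1298 the medians were 297 and 511 in Q140 and 289 and 180 in Q175. Both belong to the choroid plexus list, whose range at 10 months is given above. The same difference was below 0 for Mir669c (-0.68, adjusted p = 0.0288), Mir467a-1 (-0.61, adjusted p = 0.0485) and Mir467e (-0.93, adjusted p = 0.0489), of the Sfmbt2 intron, whose ranges at both ages overlapped in Q175. The medians of Mir467a-1 went from 20.0 to 10.5 in Q140, and ranges in Q175 were 16.9 to 24.4 and 13.7 to 21.8. Mir667, in the Dlk1-Dio3 cluster, differed by -0.27 (adjusted p = 0.0489), and Mir204 had 0.91 (adjusted p = 0.0866). With lane number as a covariate 0 of 338 passed, 27 of them at an unadjusted p under 0.05, and 0 passed without the 4 high libraries.

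Between the sexes of Q140, 0 of 343 microRNAs (0%) differed in their age difference with edgeR, where 22 had an unadjusted p under 0.05, and 0 with DESeq2, where 20 did. Females alone gave 55 calls and males alone 101, and neither number is a test of a difference between them.

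Lane number was further set beside the age difference with libraries of other genotypes that shared lane number 7 at both ages, 4 of 2 months and 14 of 10 months (Q20, WT, Q80 and Q111). The flow cell is not given, so lane number 7 may stand for different runs at each age, and run was not held constant. There 126 of 339 microRNAs passed, 37.2%. Of the 142 of Q140, 136 had the same sign and 84 passed with the same sign. Mir296 had a log2 change of -1.88 (adjusted p = 8.40e-11), Mir187 of -2.01 (adjusted p = 2.26e-08), Mir193a of 0.92 (adjusted p = 4.02e-06) and Mir30c-2 of 0.47 (adjusted p = 1.21e-06). Mir212, which did not pass in controls either, had 0.01 (adjusted p = 0.950). In Q140 itself, the 6 libraries of lane number 2 against the 6 of lane number 7 gave 115 calls, of which 109 were among the 142. A joint fit of all genotypes with lane number as a term gave 106, of which 79 were among them.

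At 6 months, for which only levels were set beside the others, the median lay between those of 2 and 10 months for 46 of the 142, 23 rising and 23 falling, and for 68 of all 326 tested. Mir296 had medians of 52.0, 18.4 and 15.1 CPM at 2, 6 and 10 months, and Mir3547 of 29.6, 22.6 and 6.47. Mir193a had 14.8, 5.72 and 29.7, Mir30b 2859, 1697 and 4480, and Mir7-2 51.0, 84.9 and 15.9. In these 3 the 6-month level lay outside the range between the other ages. Medians were also lowest at 6 months for Mir30c-2 (12130, 8579 and 17790), Mir30e (13230, 12140 and 15640), Mir30a (36810, 35720 and 42080) and Mir497b (380, 240.2 and 647.3). Those of Mir203 (111.9, 155.6 and 166.9) and Mir101a (4936, 4972 and 7350) lay between. The 6-month libraries came from other lane numbers in part, and 2 of them carried another kind of library code.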

How the data were processed

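Small RNA of whole cortex (miRNeasy extraction, 36-base single-end HiSeq reads) was measured. The authors deposited estimated counts per transcript, of which 48.1% of values above 0 were not whole. Base calling used CASAVA 1.8.2 per the submitters' processing notes; the study's methods name STAR, mm10 and HTSeq, and whether strand was used in counting is not certain. Counts were rounded, library sizes were taken over all 1626 transcripts, and the 638 transcripts that GENCODE M21 names as microRNAs were analysed.

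MicroRNAs passed edgeR's filterByExpr at a minimum count of 10, which left 326 of 638 (of the other 312, 246 had a count in the 16 libraries). TMM scaling, a sex covariate and edgeR 4.0.16 (R 4.3.3) quasi-likelihood tests with Benjamini-Hochberg adjustment gave the calls at FDR 0.05. The SE is the absolute log2 change over the root of F. Differences between genotypes or sexes were interaction terms. DESeq2 1.42.0, other scalings, filters, lane and sex subsets and leaving out libraries were alternatives. Leaving out the 4 or 5 libraries and the RLE scaling of controls and of lane number 7 were chosen after seeing the data.

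Named microRNAs were the 10 steepest in each direction among calls with a mean of 50 counts or more. To these came up to 4 members of each list with the smallest p, the leading interactions and a chosen set, 90 in all. The chosen set was Mir132, Mir212, Mir135b, Mir221, Mir10b, Mir484, Mir187, Mir125b-1 and Mir125b-2. It is neither all nor only what the study's text names for the cortex, where Mir20a, Mir708, Mir99a and Mir138-2 also appear. The libraries, lists and rule were chosen with earlier results of these data known. Libraries are separate samples per the labels, and p-values measure the spread between them only. Of 56 pairs within an age, none agreed within sampling noise. On simulated data for the age comparison (329 microRNAs tested), 59.5% of changes of 1.25-fold, 97.6% of 1.5-fold and 100% of 2-fold were recovered. Of 208 unchanged, 3 were called. For the difference from controls the shares were 56.7, 91.2 and 100%, and 5 of 240 unchanged were called. All simulated microRNAs had a single dispersion (0.0216 and 0.0152). The shares therefore do not hold for microRNAs with a wider spread, such as Mir1298 (log2 0.95, SE 0.43, not passed). Depth of 3842836 to 5566554 counts sets counting error only. The mature sequences were found in RefSeq (GRCm38.p6) for 299 of the 326, and 51 share one with another locus, so their split is uncertain.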

Additional observations from a re-analysis of the deposited data

Results flagged for a closer look

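In 180 groups of 8 libraries (90 microRNAs at both ages), 23 had a library whose gap to its nearest neighbour relative to the range was above Dixon's 95% critical value, where chance flags about 1 in 20 groups. Female replicate 2 of 10 months was that library in 15 of them. It was the highest for Mir9-2 (55000 CPM), Mir21a (3360), Mir146b (630.6), Mir486 (3105), Mir30a (55870), Mir181b-2 (2149), Mir181b-1 (8375), Mir181a-2 (154900), Mir181a-1 (10250) and Mir222 (2629), and the lowest for Mirlet7g (7304), Mir29c (2303), Mir29a (17730), Mir15a (483.7) and Mir125b-2 (10260). Without it 164 microRNAs passed instead of 142, and 138 of the 142 were among them.

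Female replicate 3 of 2 months, with the highest epithelial and sensory sum, stood apart for Mir141 (1086 CPM), Mir182 (22540) and Mir200b (1068). Single libraries stood apart for Mir30c-2 (15220 CPM, Female replicate 1 of 2 months), Mir1912 (4.529, Male replicate 3 of 2 months), Mir484 (570 CPM, Male replicate 4 of 2 months), Mir451a (455.8 CPM, Female replicate 3 of 10 months) and Mirlet7c-1 (5082, Male replicate 4 of 10 months).

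The age difference of Q140 minus that of Q175, as an interaction term, passed FDR 0.05 for Mir669c (-0.68), Mir448 (2.14), Mir1298 (1.91), Mir467a-1 (-0.61), Mir467e (-0.93) and Mir667 (-0.27). None of the 6 passed with lane number as a covariate or without 4 libraries of 2 months.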

How the results depend on the processing

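The count of 142 was 127 to 164 without 1 library (lowest without Male replicate 2 of 2 months, highest without Female replicate 2 of 10 months), and between 101 and 165 under most other settings, among them DESeq2 (143), no filter (140), RLE (144), the study's microRNAs (117), every transcript (156), no covariate (138), a joint fit (165) and the same with lane number (106). It was 55 in females only and 101 in males only. Without 4 libraries of 2 months it was 88, and without 5 libraries 117. Against a fold change of 1.2, a stricter test, it was 52. The cause of the lower counts in females and without the 4 libraries was not tested. Same-numbered libraries did not deviate together (correlations -0.418 to 0.385), and the fit with a replicate block gave 114 calls, 112 of them among the 142, and lost 7 of the 8 epithelial and sensory microRNAs. For the difference from Q175, 6 became 2 on library size alone, 12 with DESeq2, 0 with lane number and 0 without the 4 libraries. For the difference from controls, 0 became 7 without them, 6 of them epithelial and sensory microRNAs whose high libraries were removed from Q140 only. Of 60 named microRNAs that passed, 18 kept direction and side of the threshold in every setting and 48 without each library.

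Of 2862 recomputed values of named microRNAs 32 changed sign. Without the 4 libraries these were Mir141 (0.735), Mir183 (0.737), Mir182 (0.893), Mir96 (1.061), Mir200a (0.47), Mir429 (0.436), Mir200b (0.325), Mir126a (-0.02), Mir208a (0.038) and Mir135a-1 (-0.019). Without 5 libraries they were Mir141 (0.549), Mir183 (0.423), Mir182 (0.583), Mir200a (0.396), Mir429 (0.357) and Mir200b (0.255). For the epithelial and sensory microRNAs these sign changes follow from leaving out the libraries with their highest sums. In the joint fit with lane number they were Mir208a (0.337), Mirlet7g (-0.05), Mirlet7c-1 (0.056), Mir195a (-0.097), Mir135a-1 (-0.045), Mir221 (0.11), Mir222 (0.054) and Mir370 (0.001). The rest were Mir126a (-0.025) on library size alone, Mir146b (0.004) and Mir222 (0.041) in lane 2 against 7, Mir146b (0.001) and Mir222 (0.02) in females, Mir219a-1 (-0.032) and Mir208a (0) in males, and Mir208a (-0.124 to 0.007) without 1 library. The cause of the other sign changes was not tested. At this depth, microRNAs under about 10 counts were not tested.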
